A study of Mus musculus with 2 samples.

Results

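The genes described here are 10 chemokines and chemokine receptors with roles in the traffic of dendritic cells (DCs) and lymphocytes, found by their symbols among the 31053 genes of the count matrices. They are the ligands Ccl17, Ccl22, Cxcl16 and Xcl1 and the receptors Ccr4, Ccr7, Cxcr4, Cxcr6, Cx3cr1 and Xcr1, and all 10 were detected. Adult male C57BL/6 mice received 100000 cells of GL261, a glioma line of the same mouse strain, in the brain, and leukocytes of the tumor-bearing hemisphere were taken on day 10. The WT group carried 2 normal copies of Siglec1, the gene of CD169, and the CD169-DTR group carried the diphtheria toxin (DT) receptor in 1 of them. Both groups received DT on days -1 and 4 relative to tumor injection, so the toxin itself was common to both. Live CD45.2+ cells of 3 mice were pooled per group and sequenced as 1 droplet library each. The toxin receptor follows every cell that expresses CD169, whatever its class, and with 1 pooled library per group the difference between mice was not measured.

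Chemokines are secreted or membrane-bound proteins that guide cells along a gradient towards the cell that makes them, through receptors coupled to G proteins. Ccr7 takes maturing DCs and naive lymphocytes to lymph nodes, whereas Ccl17, Ccl22, Cxcl16 and Xcl1 are made within tissue and bring in or hold the cells that carry Ccr4, Cxcr6 and Xcr1. Cxcr4 retains many leukocytes near cells that make Cxcl12, and Cx3cr1 binds Cx3cl1, the membrane chemokine fractalkine, and is the textbook receptor of microglia.

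A barcode was taken as a cell where it had 1000 unique molecular identifiers (UMIs) or more and no more than 17% of them from mitochondrial genes. This gave 10107 WT cells (median 7776 UMIs) and 7604 CD169-DTR cells (median 8099.5 UMIs) out of libraries of 101808996 and 84065489 UMIs. The libraries shared 21 barcodes, 0.208% of the WT and 0.276% of the CD169-DTR cells. Cells were clustered without the 10 genes, and each class was named from marker genes, so that microglia, macrophages, DCs, T cells and the rest stand for microglia-like, macrophage-like and so on and are not sorted populations. The immune classes held 9370 WT and 6981 CD169-DTR cells. The 3 DC subsets made up 1175 and 244 of them and consisted of 187 and 32 cDC1, 853 and 198 cDC2 and 135 and 14 migratory DCs. Macrophages numbered 2283 against 731, microglia 3935 against 4721, T cells 419 against 208 and NK cells 299 against 83. A pair of clusters with microglial markers (Cxcl10/Gm4951 and Spp1/Igf1, after their leading genes) could not be named and were kept apart. Siglec1, the targeted gene, had 19.5 counts per 1000000 UMIs (CPM) in WT and 6.07 in CD169-DTR immune cells.

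Levels below are the summed UMIs of a class divided by all its UMIs, in CPM. The library difference is given as log2 of WT divided by CD169-DTR, so that a positive value is a higher level in WT. Intervals in brackets are exact 95% intervals (Poisson for CPM, Clopper-Pearson for shares, conditional binomial for ratios). They cover counting error only, since no replicate library exists, and no test was made. To compare how many cells had a UMI of a gene, every cell was thinned to 3000 UMIs, and the unthinned share is given beside. A gene counted as past 2-fold only where both libraries together held at least 20 of its UMIs in that class.

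To see which cells were the sources and which the receivers, the level of each gene was compared among classes. Ccl22 was highest in migratory DCs, and Xcr1 marked cDC1. Xcl1 was highest in NK cells and CD8 T cells, Cxcr6 in gamma-delta T cells and Ccr4 in Treg. Cxcl16 and Cxcr4 were spread over the myeloid classes, and Cx3cr1 was highest in microglia. These places were shared by both libraries.

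**Figure D1:**
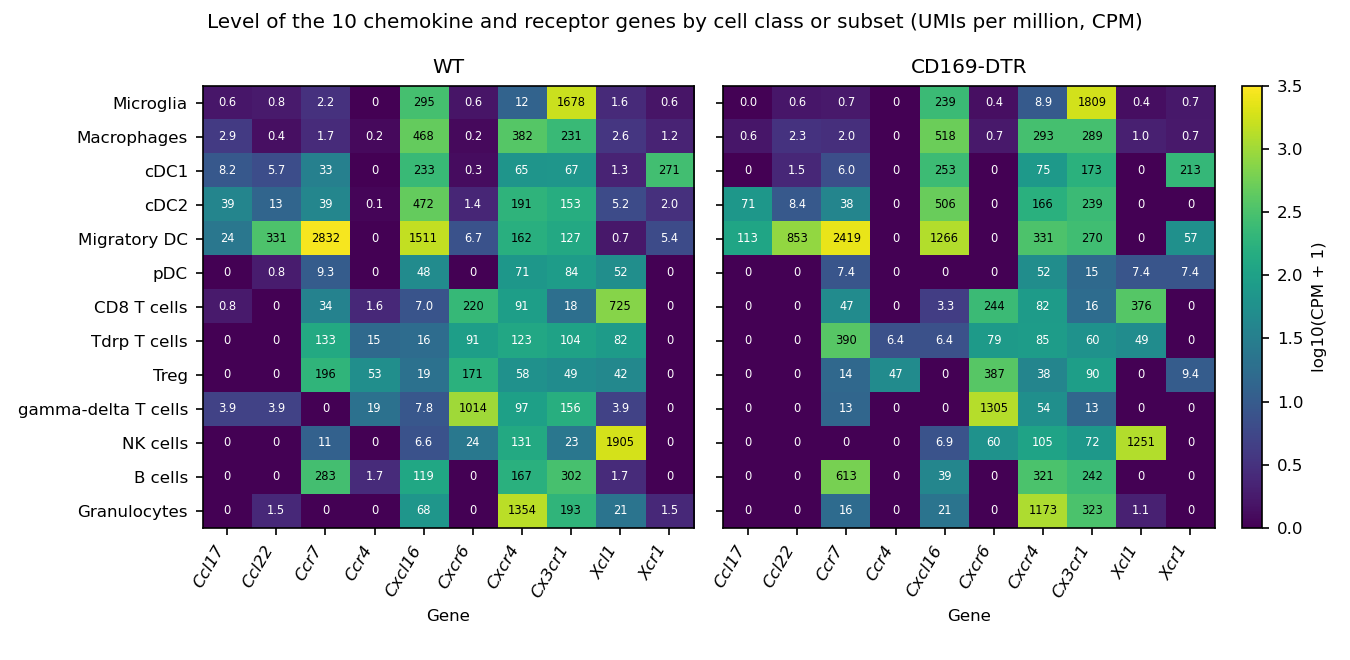
Level of the 10 genes (columns) in 13 cell classes and subsets (rows) of the WT library (left) and the CD169-DTR library (right), in CPM, printed in each cell and coloured by log10(CPM + 1). Ccr7 reached 2832 and 2419 in migratory DCs, Xcl1 1905 and 1251 in NK cells and Cx3cr1 1678 and 1809 in microglia.

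Ccl17 and Ccl22 are the ligands of Ccr4. They lie on mouse chromosome 8, Ccl22 at chr8:94745590-94751699 and Ccl17 at chr8:94810453-94812036 (GRCm38, both on the plus strand), 58.8 kb apart with Cx3cl1, the ligand of Cx3cr1, as the only protein-coding gene between them. Their promoter sequences are shown because the genes are neighbours and both had their highest levels in DCs. The windows are upstream of the annotated starts on the plus strand of GRCm38.p6, from RefSeq, chr8:94745434-94745589 for Ccl22 and chr8:94810203-94810452 for Ccl17. Capitals mark GGGACTT, the core of a kappaB motif.
Ccl22: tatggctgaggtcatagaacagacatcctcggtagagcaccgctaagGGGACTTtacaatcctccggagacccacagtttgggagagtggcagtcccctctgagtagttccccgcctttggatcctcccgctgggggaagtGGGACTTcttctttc
Ccl17: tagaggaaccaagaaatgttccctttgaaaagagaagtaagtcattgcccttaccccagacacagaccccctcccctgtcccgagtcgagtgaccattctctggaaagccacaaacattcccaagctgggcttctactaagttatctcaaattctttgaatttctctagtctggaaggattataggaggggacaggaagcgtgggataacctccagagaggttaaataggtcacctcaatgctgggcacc
The Ccl22 window ends before the GENCODE start, which lies 94 bases upstream of the RefSeq start. Its GGGACTT matches began 109 and 15 bases before the end of the window, and the Ccl17 window held none. Of 32851 promoters in the RefSeq table, 4.65% held it on either strand. The table held 8 of the 10 genes, and besides Ccl22 the motif was found for Cx3cr1. An AP-1 motif, TGANTCA, was present in 6.75% of all promoters and in that of Ccr4. The PU.1 core GAGGAAGT (2.44% of promoters) and an interferon response motif (2.98%) were in the window of none of the 8. The motifs were searched on both strands, do not overlap in the printed windows and were chosen after the sequences were seen, so these matches are descriptions only. Ccr7 and Cxcl16 were the genes not in the table.

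Ccl22, a chemokine of mature DCs, was mainly a transcript of migratory DCs. In the WT library these cells were 1.44% of the immune cells and held 72.4% of the Ccl22 UMIs, and in the CD169-DTR library they were 0.201% and held 70.8%. The level was 331 CPM (303 to 362) in WT against 853 (738 to 981) in CD169-DTR migratory DCs, a log2 ratio of -1.36 (-1.61 to -1.12). Thus the summed Ccl22 level was higher in the few migratory DCs of the CD169-DTR library, of which 10 of 14 had a UMI. Single cells varied widely, with a median of 1 UMI and a highest value of 67 among 135 WT cells, and a median of 6 and a highest value of 60 among 14 CD169-DTR cells. After thinning, 31.3% of WT (41 of 131) and 57.1% of CD169-DTR (8 of 14) migratory DCs had a Ccl22 UMI, against 54.8% and 71.4% unthinned, at median depths of 10231 and 16447 UMIs. Without the top cell of each library the log2 ratio was -1.20.

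The other DC subsets had little Ccl22. In cDC2 it was 12.8 CPM in WT (120 UMIs) and 8.37 in CD169-DTR (24 UMIs), and in cDC1 it was 5.66 and 1.49. Macrophages held 7 Ccl22 UMIs in WT and 22 in CD169-DTR, a log2 ratio of -2.58, of which 13 of the 22 were in 1 cell and all 22 in 2 cells. Microglia held 26 and 28. No UMI was found in NK or B cells of either library.

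Ccl17, the close relative of Ccl22, was mainly a transcript of cDC2. These cells held 71.2% of its UMIs in WT and 85.7% in CD169-DTR. A few cells carried nearly all of it, since 36 of 853 WT and 10 of 198 CD169-DTR cDC2 had any UMI and the highest single cells held 116 of 363 (32.0%) and 141 of 203 UMIs (69.5%). The cDC2 level was 38.7 CPM (34.8 to 42.9) in WT against 70.8 (61.4 to 81.3) in CD169-DTR. Without the top cell of each library the log2 ratio in cDC2 turned from -0.87 to 0.28, so the direction rested on those cells. Migratory DCs had 23.6 CPM in WT (35 UMIs) and 113 in CD169-DTR (26 UMIs), a log2 ratio of -2.26 and of -1.91 without the top cells. cDC1 held 26 UMIs in WT and 0 in CD169-DTR.

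Over all DCs, Ccl17 was at 30.2 CPM in WT and 60.8 in CD169-DTR, a log2 ratio of -1.01 (-1.25 to -0.77), which was -0.10 without the top cell of each library. Macrophages held 54 UMIs of Ccl17 in WT, 36 of them in 1 cell, and 6 in CD169-DTR, all in 1 cell. Microglia held 21 and 2, and 19 of the 21 were in 1 cell. NK cells, B cells, granulocytes and plasmacytoid DCs (pDC) had none in either library. Most Ccl17 UMIs of macrophages and WT microglia thus lay in single cells.

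**Figure D2:**
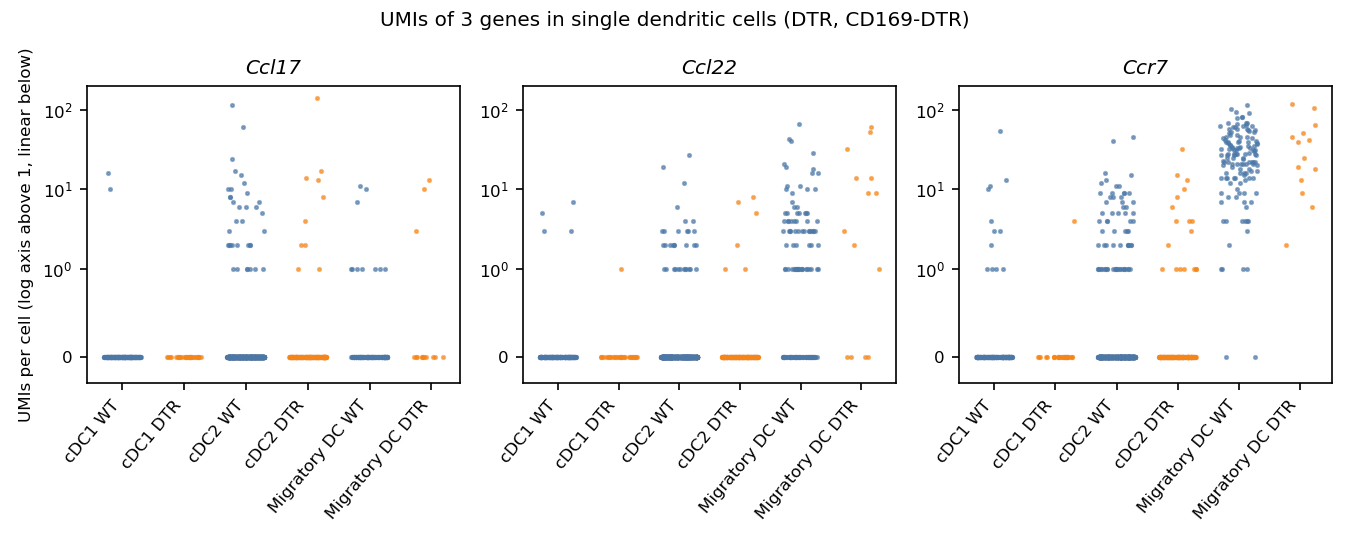
UMIs of Ccl17, Ccl22 and Ccr7 in single cDC1, cDC2 and migratory DCs of the WT (blue) and CD169-DTR (orange) libraries, 1 point per cell, unthinned, on an axis that is logarithmic above 1 and linear below. Ccr7 was present in 133 of 135 WT and 14 of 14 CD169-DTR migratory DCs, Ccl22 reached 67 and 60 UMIs there, and Ccl17 was found in scattered cDC2 with up to 116 and 141 UMIs.

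Within DC subsets, Ccl17 and Ccl22 were compared in the same thinned cells. Of 10 WT cDC2 with a Ccl22 UMI, 5 also had Ccl17 (50%, 18.7 to 81.3), against 2.05% of the cDC2 without Ccl22. In migratory DCs, 1 of 41 WT and 2 of 8 CD169-DTR cells with Ccl22 had Ccl17. Ccr7 was present in 41 of 41 WT and 8 of 8 CD169-DTR migratory DCs with Ccl22, and in 94.4% and 100% of those without it.

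Ccr4 (chr9:114490316-114504916, minus strand), the receptor of both ligands, was rare and confined almost to T cells, which held 83.8% of its 74 immune UMIs in WT and all 13 in CD169-DTR. Treg, the regulatory T cells, had 52.9 CPM (35.7 to 75.6; 30 UMIs) in WT against 47.2 (22.6 to 86.7; 10 UMIs) in CD169-DTR. The Treg levels were within each other's interval. Ccr4 was found in 34.8% and 21.9% of Treg, or 5 of 42 (11.9%) and 1 of 29 (3.45%) after thinning. The other T subsets were lower, with 14.6 and 6.39 CPM in the T cells led by Tdrp, 15 and 0 UMIs in those led by Ube2c, 2 and 0 in CD8 T cells and 5 and 0 in gamma-delta T cells. Over all T cells it was 18.6 CPM in WT and 8.95 in CD169-DTR, a log2 ratio of 1.06 (0.18 to 2.04), from 62 UMIs in 37 cells and 13 UMIs in 10 cells. After thinning, 4.00% of WT and 1.53% of CD169-DTR T cells had a UMI. Microglia, which lack the gene, had a UMI in 0 of 3763 and 0 of 4583 thinned cells, for which 3 counts, taken as the limit, are 0.0797% and 0.0655% of cells with a UMI, at median depths of 7198 and 7617 UMIs.

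Ccr7 (chr11:99144196-99155077, minus strand) had its highest level in migratory DCs. Its level there was 2832 CPM (2747 to 2919) in WT against 2419 (2222 to 2629) in CD169-DTR, a log2 ratio of 0.23. The median cell had 27 UMIs (range 0 to 114) in WT against 32 (2 to 118) in CD169-DTR, and 96.2% and 100% of the cells had a UMI after thinning, against 98.5% and 100% before. The level per migratory DC therefore differed little between the libraries while their number was 135 against 14. Their share of all immune Ccr7 UMIs was 78.2% in WT and 40.4% in CD169-DTR. In cDC2 the level was 39.3 and 37.7 CPM. cDC1 had 104 UMIs in WT, 54 of them in 1 cell, and 4 in CD169-DTR.

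The second place of Ccr7 was in lymphocytes, and the libraries differed in both directions. B cells had 283 CPM in WT (164 UMIs) and 613 in CD169-DTR (411 UMIs), a log2 ratio of -1.12, with a UMI in 50.0% and 64.9% of thinned cells (45 of 75 and 91 of 124 unthinned; median depths 4522 and 4125 UMIs). In WT 42 of the 164 UMIs lay in 1 cell. The macrophage markers in B cells summed to 4251 CPM in WT and 1377 in CD169-DTR. Among the highest 6% of doublet scores were 18.7% of WT and 8.06% of CD169-DTR B cells. The part of these in the B cell difference was not tested. T cells of the Tdrp-led cluster had 133 CPM in WT and 390 in CD169-DTR, with a UMI in 22.9% and 46.7% of thinned cells (34 of 136 and 48 of 80 unthinned). CD8 T cells were at 34.4 and 47.4 CPM. Treg went the other way, with 196 CPM in WT and 14.2 in CD169-DTR, but 89 of the 111 WT UMIs were in 1 cell. The Ube2c-led T cells had 110 UMIs in WT, 91 of them in 1 cell, and 0 in CD169-DTR, and NK cells had 19 and 0. Over all T cells it was 107 CPM in WT and 149 in CD169-DTR, a log2 ratio of -0.48 and of -0.72 without the top cells. B cells held 3.05% of the immune Ccr7 UMIs in WT and 29.8% in CD169-DTR, and T cells 6.62% and 15.7%. Microglia, taken as a class without this receptor, had a UMI in 0.32% and 0.11% of thinned cells (0.89% and 0.51% unthinned), far below B and T cells. Their 74 and 31 UMIs were above the 30.9 and 14.7 expected from free RNA, and 30 of the 74 lay in 1 cell. The Il1a/Atf3 cluster of microglia had 5.51 and 2.83 CPM. For the ligands of Ccr7, Ccl19 had 8 and 12 UMIs in the endothelial cells that came through the sort.

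Cxcl16 (chr11:70453983-70459984, minus strand), a membrane chemokine that is shed by Adam10 and also serves as a scavenger receptor, was found in DCs, most macrophages and microglia. Migratory DCs had the highest level, 1511 CPM (1449 to 1575) in WT against 1266 (1125 to 1420) in CD169-DTR, and every migratory DC had a UMI (135 of 135 and 14 of 14). cDC2 had 472 and 506 CPM, and cDC1 233 and 253. Among macrophages the level ran from 728 and 771 in the Slfn4/Ly6c2 cluster through 511 and 621 in Gpnmb/Pf4 and 294 and 332 in Chil3/Clec4e to 29.8 and 38.9 in Ear2/Adgre4. The same order of macrophage clusters was thus seen in both libraries. Macrophages as a class had 468 CPM in WT and 518 in CD169-DTR, a log2 ratio of -0.15, and DCs 528 and 507, a log2 ratio of 0.06 (-0.01 to 0.13). The DC interval includes no difference. After thinning, 57.8% and 57.2% of macrophages had a UMI (70.9% and 72.6% unthinned).

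Microglia had less Cxcl16 than macrophages, 295 CPM in WT and 239 in CD169-DTR, a log2 ratio of 0.31 (0.27 to 0.35). The level depended on the microglial state. It was lowest in the P2ry12/Sox4 cluster, at 81.5 and 79.3 CPM, and intermediate in Gpr34/Cst3, at 171 and 157. The Il1a/Atf3 cluster had 402 and 354, Lpl/C4b 397 and 295 and the cycling Mki67/Top2a cells 414 and 353. Cxcl16 was higher in WT in each of these 5 clusters, though only slightly in P2ry12/Sox4. The Uhrf1/Hells and Ccnb2/Cdkn3 clusters of microglia are not listed here. The unnamed clusters were higher still, with 737 and 523 CPM in Cxcl10/Gm4951 and 501 and 384 in Spp1/Igf1. Since microglia outnumbered the other classes, they held 30.7% of the immune Cxcl16 UMIs in WT and 48.9% in CD169-DTR, whereas DCs held 22.9% and 8.97%. NK cells, a class not known to make Cxcl16, had 6.60 and 6.90 CPM, with a UMI in 1.96% and 1.25% of thinned cells (3.68% and 4.82% unthinned; median depths 5243 and 6387 UMIs, against 7190 and 11817 in macrophages). T cells had 63 UMIs in WT, 20 of them in 1 cell, and 7 in CD169-DTR (18.9 against 4.82 CPM, a log2 ratio of 1.97). Free RNA was expected to give 89.1 and 12.2 Cxcl16 UMIs in these T cells, more than was observed. The macrophage markers in the T cells summed to 2822 CPM in WT and 1904 in CD169-DTR, and their part in the Cxcl16 difference was not tested.

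Cxcr6, the receptor of Cxcl16 and a marker of tissue-resident lymphocytes, was a T cell gene. T cells held 83.7% of its immune UMIs in WT and 81.8% in CD169-DTR. Gamma-delta T cells were highest, with 1014 CPM (894 to 1145) in WT against 1305 (1058 to 1592) in CD169-DTR, and 34 of 36 and 11 of 11 of these cells had a UMI. CD8 T cells had 220 and 244 CPM, a UMI being found in 38.2% and 38.7% of thinned cells (50.6% and 51.3% unthinned). The CD8 values were thus alike in level and in share. Treg had 171 and 387 CPM, where 1 cell held 31 of 97 UMIs in WT and 1 cell 30 of 82 in CD169-DTR, with a log2 ratio of -1.06 without them. The Tdrp-led T cells had 90.8 and 78.8 CPM. Over all T cells it was 235 CPM in WT and 259 in CD169-DTR, a log2 ratio of -0.14 (-0.32 to 0.04), and 33.1% and 29.1% of thinned cells had a UMI (43.7% and 40.4% unthinned). Thinned microglia had a UMI in 0.13% and 0.07%.

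In NK cells, Cxcr6 was lower in WT than in CD169-DTR, 24 against 60.4 CPM, a log2 ratio of -1.33 (-2.02 to -0.63). This came from 40 UMIs in 16 WT cells and 35 UMIs in 8 CD169-DTR cells. A single CD169-DTR cell held 14 of the 35, and without the top cells the log2 ratio was -0.89, under 2-fold. DCs had 24 Cxcr6 UMIs in WT and 0 in CD169-DTR. Of the 24, 10 lay in 1 migratory DC and 13.5 were expected from free RNA. With 3 UMIs set in place of the 0, WT was 2.14-fold higher, a value that leaves out the counting error of the 24 UMIs. Cxcr6 and Ccr7 were rarely found in the same T cell. In WT, Cxcr6 was present in 6 of 46 thinned T cells with Ccr7 (13%) and in 35.9% of those without it, and in CD169-DTR in 3 of 41 (7.32%) and in 34.8%. Within WT CD8 T cells the shares were closer, 4 of 15 (26.7%) and 39.3%.

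Cxcr4 (chr1:128588199-128592293, minus strand), the receptor of Cxcl12, had the widest spread of the receptors. Granulocytes had the highest level, 1354 CPM in WT and 1173 in CD169-DTR (log2 ratio 0.21), with a UMI in 87.2% and 77.9% of thinned cells (89.9% and 86.6% unthinned). Macrophages held most of the UMIs, 59.8% and 52.6%, at 382 and 293 CPM, a log2 ratio of 0.39 (0.32 to 0.45). Among their clusters, WT was higher in Slfn4/Ly6c2 (469 against 352), Chil3/Clec4e (359 against 289) and Gpnmb/Pf4 (316 against 252), and lower in Ear2/Adgre4 (438 against 511). DCs as a whole were alike, at 159 and 160 CPM with a log2 ratio of -0.01 (-0.14 to 0.13). Within them migratory DCs had 162 and 331 CPM, a log2 ratio of -1.03 that was -0.82 without the top cells, while cDC2 had 191 and 166 and cDC1 65.1 and 74.5. B cells had 167 and 321 CPM (log2 ratio -0.94), NK cells 131 and 105, and T cells 86.7 and 77.1. The macrophage markers and doublet scores of B cells given under Ccr7 apply here too, and their part was not tested. Microglia were far lower, at 12.1 and 8.90 CPM, with a UMI in 2.63% and 1.75% of thinned cells (7.01% and 4.83% unthinned). The microglia with the most were those of the Il1a/Atf3 cluster, 30.6 and 27.3 CPM. The unnamed cluster led by Spp1 and Igf1 had 52.5 CPM in WT (226 UMIs) and 18.4 in CD169-DTR (78 UMIs), with a UMI in 14.5% and 3.6% of thinned cells, and that led by Cxcl10 and Gm4951 had 14.3 and 4.97 CPM. Cxcr4 was thus higher in WT in both unnamed clusters.

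Cxcl12 itself came from cells outside the immune classes. Endothelial cells had 935 CPM in WT and 1082 in CD169-DTR, and pericytes and fibroblasts 1045 and 1542. Ackr3, an atypical receptor that takes up Cxcl12, was at 58.8 and 75.6 CPM in endothelial cells and at 302 and 150 in pericytes and fibroblasts. The sort was for CD45.2+ cells, so these are the non-immune cells that came through it.

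**Figure D3:**
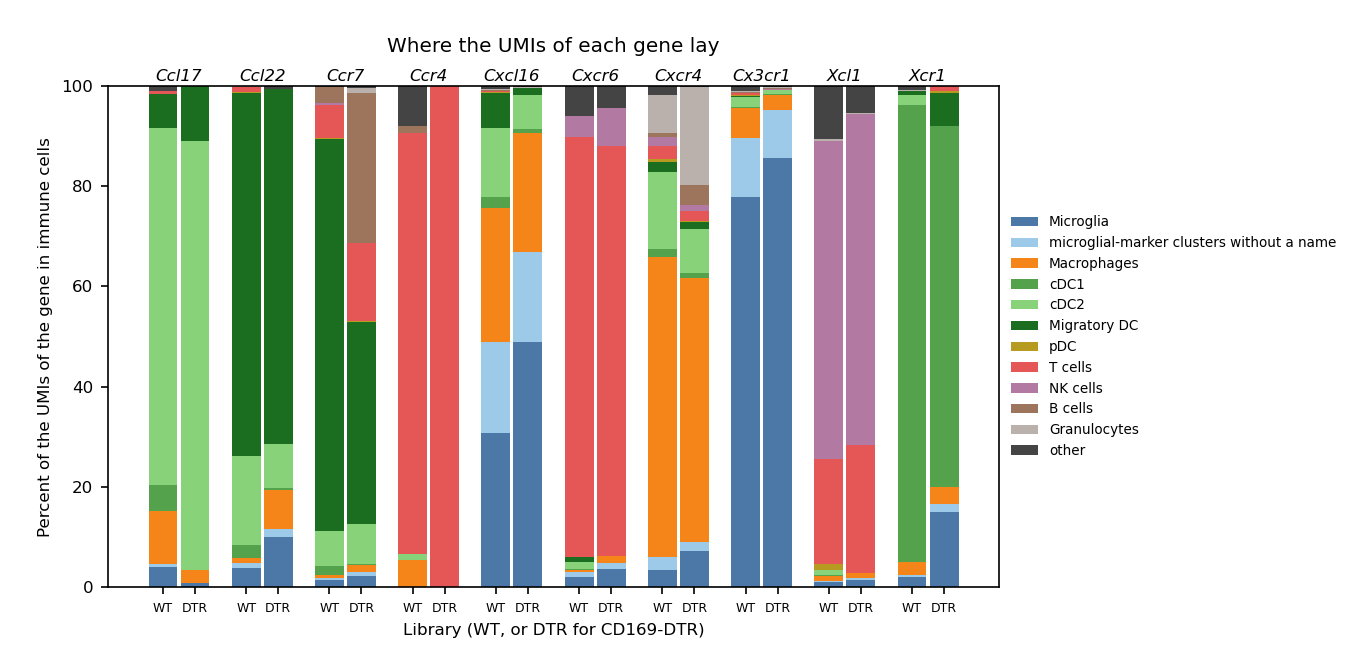
Share of each gene's immune UMIs (vertical axis, percent) that lay in each class, as stacked bars for the WT and CD169-DTR (DTR) libraries. Migratory DCs (dark green) held 78.2% of Ccr7 in WT and 40.4% in CD169-DTR, where B cells (brown) held 3.05% and 29.8%, and cDC1 held 91.2% and 71.9% of Xcr1.

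Cx3cr1 (chr9:119901616-120069879, minus strand) was high in microglia, which held 77.7% of its immune UMIs in WT and 85.7% in CD169-DTR. The microglial level was 1678 CPM in WT and 1809 in CD169-DTR, a log2 ratio of -0.11 (-0.12 to -0.09), with a median of 13 and 15 UMIs per cell and 96.2% of thinned cells positive in both. Levels differed among the microglial clusters. The P2ry12/Sox4 cluster had 2902 and 2992 CPM and Gpr34/Cst3 2008 and 1996. Mki67/Top2a had 1332 and 1389, Lpl/C4b 1216 and 1325 and Il1a/Atf3 963 and 995. In each library, the cluster with the most Cx3cr1 was the one with the least Cxcl16 of these 5.

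Outside microglia, Cx3cr1 was higher in CD169-DTR in macrophages, DCs and NK cells. Macrophages had 231 CPM in WT and 289 in CD169-DTR (log2 ratio -0.32), with a UMI in 26.1% and 37.7% of thinned cells (38.8% and 64.8% unthinned). The Ear2/Adgre4 cluster had 334 and 567, Slfn4/Ly6c2 234 and 345, Chil3/Clec4e 177 and 229 and Gpnmb/Pf4 298 and 275. The Gpnmb/Pf4 cluster was the exception in direction. The 10 microglial markers in macrophages summed to 1947 CPM in WT and 2429 in CD169-DTR, all detected in both, and their part in the Cx3cr1 difference was not tested. In free RNA, Cx3cr1 was at 572 and 893 CPM. DCs had 131 and 229 CPM (log2 ratio -0.81), with 153 and 239 in cDC2, 67.0 and 173 in cDC1 and 127 and 270 in migratory DCs. In migratory DCs the log2 ratio was -1.08, and -0.09 without the top cells. The summed level of 10 microglial markers in DCs was 1376 CPM in WT and 1997 in CD169-DTR, all 10 being detected in both, and its part in the Cx3cr1 difference was not tested.

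NK cells had 39 Cx3cr1 UMIs in 32 WT cells and 42 in 20 CD169-DTR cells, 23.4 against 72.5 CPM, a log2 ratio of -1.63 (-2.30 to -0.97). Free RNA alone was expected to give 25.1 and 10.4 UMIs. Choroid plexus cells, a class that lacks the gene, had 35 and 95 CPM (107 and 288 UMIs), a log2 ratio of -1.44. After thinning, 6.27% and 12.5% of NK cells had a UMI, against 5.76% and 9.09% of choroid plexus cells (median depths 5243 and 6387 UMIs against 14947 and 12721). In both libraries NK cells were thus below choroid plexus cells in CPM and above them in the share of thinned cells. Their UMIs were above those expected from free RNA in both. T cells had 71.4 and 46.8 CPM, where free RNA was expected to give 133 of 238 and 39.1 of 68 UMIs. Of the ligand, Cx3cl1, endothelial cells had 42.4 and 44.6 CPM and pericytes and fibroblasts 38.3 and 40.8.

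Xcl1 (chr1:164931644-164935527, minus strand), a chemokine made by NK cells and CD8 T cells, was lower in both in the CD169-DTR library. NK cells had 1905 CPM (1839 to 1972) in WT against 1251 (1162 to 1346) in CD169-DTR, a log2 ratio of 0.61 (0.49 to 0.72). The median NK cell had 4 and 3 UMIs, the highest 156 and 106, and 76.1% and 58.8% of thinned cells had a UMI (79.3% and 68.7% unthinned). CD8 T cells had 725 and 376 CPM, a log2 ratio of 0.95 (0.74 to 1.16), with a UMI in 50.3% and 37.3% of thinned cells (61.4% and 50.0% unthinned). Neither difference rested on 1 cell. Without the top cells the log2 ratio was 0.73 in NK cells and 0.90 in CD8 T cells, although 1 WT CD8 T cell held 165 of 927 UMIs. The Tdrp-led T cells had 82.0 and 49.0 CPM, whereas the small Ube2c-led cluster was lower in WT, with 46 UMIs in 25 cells against 28 in 7 cells. Of these UMIs, 12 of the 46 in WT and 22 of the 28 in CD169-DTR lay in 1 cell each. The CD169-DTR level of this cluster thus rested mostly on 1 cell. Over all T cells Xcl1 was at 316 CPM in WT and 193 in CD169-DTR, a log2 ratio of 0.71 (0.52 to 0.90). NK cells held 63.4% of the immune Xcl1 UMIs in WT and 66.0% in CD169-DTR, and T cells 21% and 25.6%.

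Xcl1 was also abundant in free RNA, 123 CPM in WT and 26.7 in CD169-DTR, and the order of the libraries was the same in its traces in other classes. Macrophages had 48 and 10 UMIs where 82.7 and 6.38 were expected from free RNA, and microglia 55 and 16 where 103 and 27.5 were expected. DCs had 54 UMIs in WT and 0 in CD169-DTR, and 22 of the 54 were in 1 cell. With 3 UMIs set in place of the 0, WT was 4.83-fold higher, again without the counting error of WT. Free RNA was expected to give 185 in the WT DCs, more than was observed. The estimate of free RNA was thus too high for Xcl1 in WT DCs, microglia and macrophages. In the DCs, 10 T cell markers summed to 47.7 CPM in WT and 5.31 in CD169-DTR, with 10 and 8 of them detected, and their part in the Xcl1 difference was not tested. pDC had 62 UMIs in WT, 47 of them in 1 cell, and 1 in CD169-DTR. Thinned microglia had a UMI in 0.61% and 0.15%, far below NK and CD8 T cells.

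Among thinned NK cells with a Cx3cr1 UMI, Xcl1 was found in 9 of 16 (56.2%), against 77.4% of those without in WT, and 3 of 10 (30%) against 62.9% in CD169-DTR. In CD8 T cells Xcl1 did not go with Cxcr6 in 1 direction, being found in 52.4% of Cxcr6-positive and 49.0% of Cxcr6-negative cells in WT and in 34.5% and 39.1% in CD169-DTR.

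Xcr1, the receptor of Xcl1 and the defining receptor of cDC1, was nearly confined to cDC1 in WT. cDC1 held 91.2% of its immune UMIs in WT and 71.9% in CD169-DTR. The cDC1 level was 271 CPM (253 to 290) in WT against 213 (180 to 251) in CD169-DTR, a log2 ratio of 0.35 (0.09 to 0.61), with a median of 3 and 2.5 UMIs per cell. After thinning, 78 of 181 WT (43.1%) and 13 of 32 CD169-DTR cDC1 (40.6%) had a UMI, against 74.9% and 84.4% unthinned, at median depths of 17190 and 20831.5 UMIs. The cDC1 levels were therefore close, while the cells numbered 187 against 32. cDC2 had 19 UMIs in WT and 0 in CD169-DTR, and migratory DCs 8 and 13, of which 7 were in 1 CD169-DTR cell. Microglia had 19 and 30 UMIs, with a UMI in 0.11% and 0.20% of thinned cells, and no UMI was found in NK or B cells. On chromosome 9, Xcr1 (chr9:123852315-123862029, minus strand) and Cxcr6 (chr9:123806475-123811760, plus strand) are neighbours, 40.6 kb apart with no protein-coding gene between them.

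To compare the libraries class by class, the genes past 2-fold were counted beside the same count over all genes with at least 20 UMIs. In microglia, 3 of 9 were past 2-fold (Ccl17, Ccr7 and Xcl1, all higher in WT), where 2.62% of all genes were. In macrophages, 3 of 8 were (Ccl17 and Xcl1 higher and Ccl22 lower in WT), against 5.45% of all genes. In DCs, 3 of 9 were (Cxcr6 and Xcl1 higher and Ccl17 lower), against 6.58%. In T cells, 2 of 7 were (Ccr4 and Cxcl16, both higher), against 7.27%, and in NK cells 2 of 4 (Cxcr6 and Cx3cr1, both lower), against 6.72%. Nearly all of these were genes at a low level in the class, with Ccl17 in DCs and Ccr4 in T cells as the members in their main class. The count for Ccl17 in DCs rested on 1 cell per library. Those for Cxcr6 and Xcl1 in DCs used 3 UMIs in place of the 0 of CD169-DTR, without the counting error of WT. Those for Xcl1 in DCs and Cxcl16 in T cells rested on fewer UMIs than free RNA was expected to give, as stated above. The same held for Xcl1 in microglia (55 and 16 UMIs, 103 and 27.5 expected) and in WT macrophages (48 UMIs, 82.7 expected). In WT microglia, 19 of 21 Ccl17 UMIs and 30 of 74 Ccr7 UMIs were each in 1 cell. The shares over all genes were not matched to such low counts. At 1.5-fold, 6 of 9 were past in DCs (18.6% of all genes) and 4 of 7 in T cells (21.3%). The median log2 ratio of the members was 0.44 in microglia, 0.12 in macrophages, 0.06 in DCs, 0.61 in T cells and -0.51 in NK cells, where all genes had -0.04, -0.05, -0.02, 0.09 and -0.03.

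**Figure D4:**
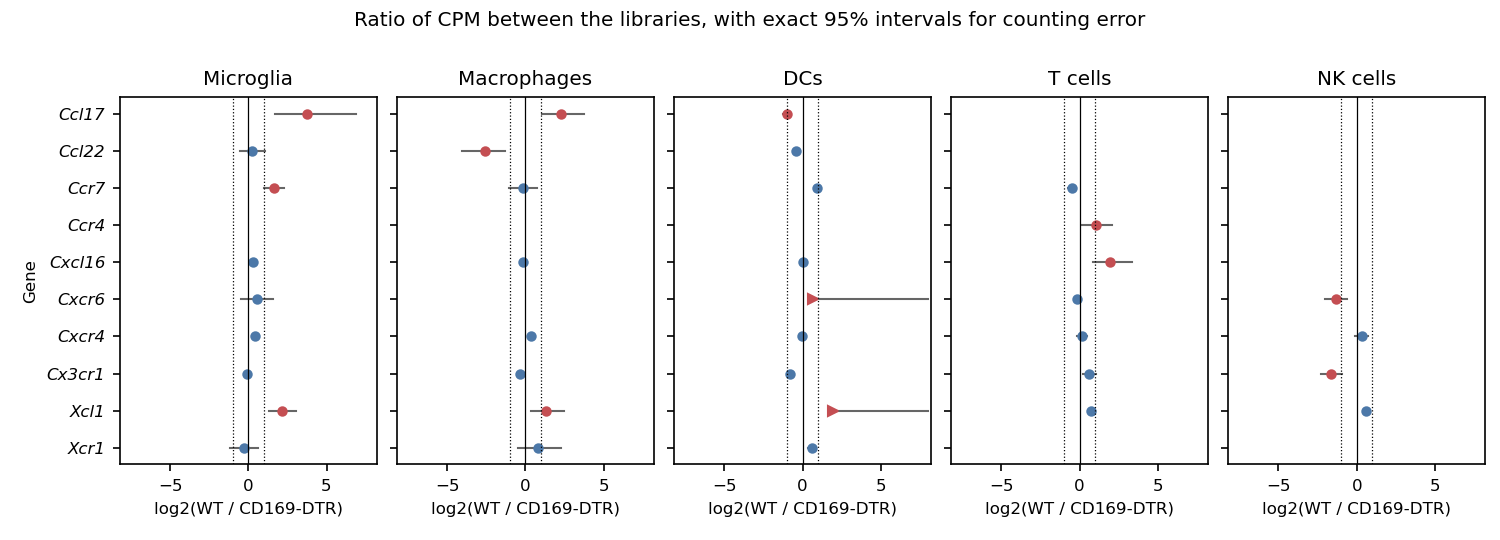
Log2 ratio of CPM, WT over CD169-DTR, for each gene in 5 classes, with exact 95% intervals for counting error as bars. Red points mark ratios past 2-fold (dotted lines). Triangles mark the lower end of the interval where the CD169-DTR library had 0 UMIs. Genes with under 20 UMIs in both libraries together have no point. Cxcl16, Cxcr4 and Cx3cr1 lay within 2-fold in microglia, macrophages and DCs.

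Over all immune cells together, 9 of the 10 genes had a higher level in WT and Cx3cr1 a lower one. The levels were 63.6 CPM in WT and 19.8 in CD169-DTR for Ccr7, 59.3 and 15.8 for Xcl1, 11.2 and 2.86 for Xcr1, and 859 and 1324 for Cx3cr1. The log2 ratios were 2.23 for Ccr4, 1.97 for Xcr1, 1.91 for Xcl1 and 1.68 for Ccr7. They were lower for Ccl22 (1.01), Cxcr4 (0.84), Ccl17 (0.82), Cxcr6 (0.74) and Cxcl16 (0.32), and -0.62 for Cx3cr1. To separate the number of cells from the level within them, the CD169-DTR levels were put on the WT mix of 14 classes, and the WT levels on the CD169-DTR mix. The mix alone gave log2 ratios of 1.56 for Ccr7, 1.75 for Xcr1, 2.09 for Ccl22, 1.55 for Ccl17, 1.01 for Cxcr6 and -0.46 for Cx3cr1. For Ccr7 and Xcr1 this is near the measured ratio, and for Ccl22, Ccl17 and Cxcr6 it is above it. The levels alone, on the WT mix, made up the rest, with 0.12 for Ccr7, 0.21 for Xcr1, -1.07 for Ccl22, -0.73 for Ccl17, -0.27 for Cxcr6 and -0.16 for Cx3cr1. On the CD169-DTR mix the levels alone gave -0.11 for Ccr7, the other direction, 0.23 for Xcr1, -0.75 for Ccl22, -0.38 for Ccl17, -0.19 for Cxcr6 and -0.13 for Cx3cr1. For Xcl1 the mix gave 1.25 and the levels 0.66 on the WT mix, and for Ccr4 0.92 and 1.31, so both parts were higher in WT. Cxcr4 had 0.55 and 0.29, and Cxcl16 0.20 and 0.12.

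**Figure D5:**
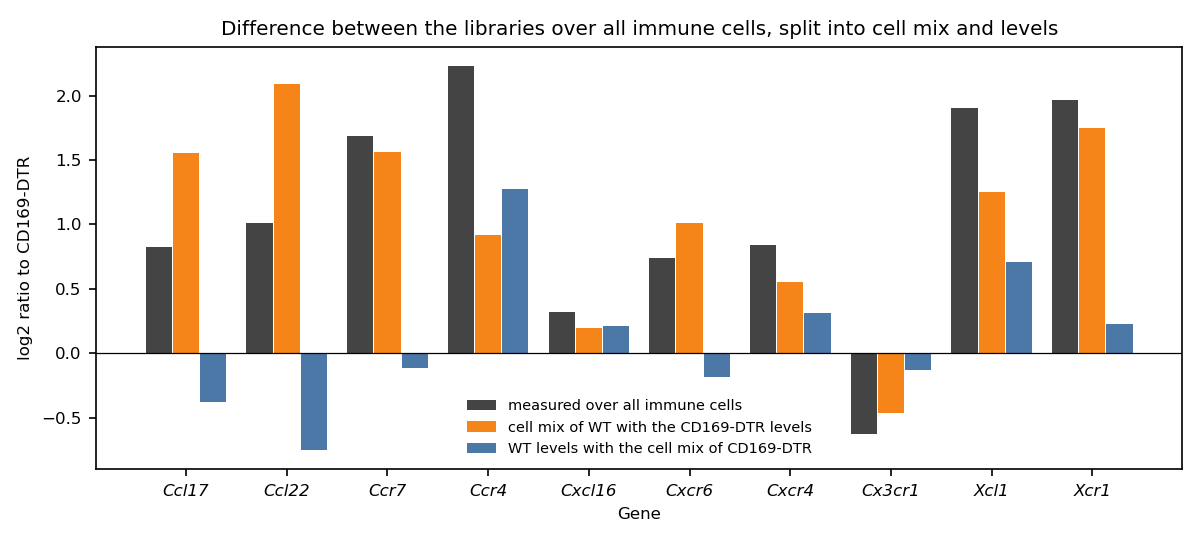
Log2 ratio of each gene over all immune cells (vertical axis) as measured (dark grey, WT over CD169-DTR), with the WT cell mix and the CD169-DTR levels (orange) and with the WT levels and the CD169-DTR cell mix (blue), both over CD169-DTR. Orange exceeds dark grey for Ccl17, Ccl22 and Cxcr6, whose blue bars lie below 0.

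Since the toxin acts on cells with CD169, WT macrophages with a Siglec1 UMI (233 cells, thinned) were set beside those without (1737 cells). Cxcl16 was 652 against 478 CPM, a log2 ratio of 0.45 (0.30 to 0.59). Within the Slfn4/Ly6c2 cluster, where 163 cells had a Siglec1 UMI and 606 had none, it was 779 against 721, a log2 ratio of 0.11 (-0.06 to 0.28). The difference over all macrophages was thus larger than that within this cluster. Cxcr4 was 421 against 442 CPM (log2 ratio -0.07, -0.25 to 0.10) and Cx3cr1 192 against 209 (-0.13, -0.40 to 0.13). The other members had at most 14 UMIs in these cells.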

How the data were processed

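The study measured RNA of single CD45.2+ cells, 1 library of WT and 1 of CD169-DTR gliomas. The authors deposited raw UMI counts per gene and barcode, without normalization or cell calling, made with Cell Ranger 3.1.0 (per the file headers) on build mm10 (per the submitters' processing notes). Cells were barcodes with 1000 UMIs or more, of which no more than 17% were mitochondrial.

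Libraries were integrated in Seurat 5.3.0 (R 4.3.3) on 50 dimensions from 2000 variable features without the 10 genes, and clustered on 30 dimensions at resolution 1. Lymphocyte clusters were split further with 20 dimensions and resolution 0.5. A name needed 3 markers with at least 10 UMIs and 25% of the level of their highest cluster, and was refused where the 10 leading genes went against it. T or NK clusters led by myeloid genes were kept out of the classes after the data were seen (86 WT and 12 CD169-DTR cells, 96.5% and 83.3% of them among the highest 6% of Scrublet scores). Doublets were otherwise kept. Free RNA was taken from barcodes with 10 to 100 UMIs, and its part in a class from the lowest ratio over marker lists of other classes. This part can be too high, as for Xcl1 in WT DCs, microglia and macrophages, where it gave more UMIs than were observed.

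Sums, exact intervals and thinning used Python 3.11.15, scanpy 1.11.5 (Scrublet), scipy 1.17.1, numpy 2.4.6, matplotlib 3.10.9 and pandas 2.3.3, and were tested on simulated data. No test of the libraries was made. Where a library had 0 UMIs in a class, 3 UMIs were set in their place for the fold, which leaves out the counting error of the other library. Gene positions are from GENCODE M21.

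The members and gene lists were chosen with earlier results of these data known. The genes named are the 10 members, the genes of the lists, for each member the 3 genes with the highest correlation of log2(CPM + 5) over subset profiles of at least 30 cells among genes with at least 200 UMIs, and Siglec1, and an item of the lists is not reported here. The alternatives concerned the minimum of UMIs, the mitochondrial maximum, doublets, resolution, integration, free RNA, the top cell, scaling, the weight of cells and clusters, thinning and the fold. Keeping the T or NK clusters led by myeloid genes and the unnamed clusters in their classes were alternatives added after the data were seen.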

Additional observations from a re-analysis of the deposited data

Results flagged for a closer look

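Ccl17 went in opposite directions between classes. Its log2 ratio (WT to CD169-DTR) was -1.01 in DCs, 2.25 in macrophages and 3.77 in microglia. In DCs the top cells held 116 and 141 UMIs, and the log2 ratio was -0.10 without them. In macrophages 36 of 54 WT UMIs and in microglia 19 of 21 lay in 1 cell. The difference between the classes was not tested, since each group has 1 library.

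Cxcr6 was also opposite between DCs and NK cells. The log2 ratio was -1.33 in NK cells. In DCs, where the CD169-DTR library had 0 UMIs, it was 1.10 with 3 UMIs set in their place. Of the 24 WT UMIs in DCs 10 lay in 1 cell and 13.5 were expected from free RNA, with which subtracted the log2 ratio was -0.087. In NK cells it was -0.89 without the top cells. This difference was not tested either.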

How the results depend on the processing

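No paired analysis was possible because each group has 1 library. Each ratio was counted once for every alternative, so the same ratio enters these counts repeatedly. By class, 370 such values kept their direction and moved by less than their interval, 48 moved and 3 reversed. By subset, 565 values stayed and 40 moved. The reversals were Cxcl16 in T cells at resolution 0.5 (log2 ratio -0.15), and, with free RNA subtracted, Xcl1 in macrophages (-1.20) and Cxcr6 in DCs (-0.087). For Xcl1 more free RNA was expected in WT macrophages than was observed, and for Cxcr6 the CD169-DTR DCs had 0 UMIs. In both, 3 UMIs were set in place of 0, so these values are not measured reversals. The cause was not tested beyond what each alternative changes. The number of members past the fold moved from 3 to 6 in DCs and from 2 to 4 in T cells at 1.5-fold, by construction. It was 1 in T cells at resolution 0.5 (Ccr4), with free RNA subtracted (Ccr4), with the clusters led by myeloid genes kept (Ccr4), with median-ratio scaling (Cxcl16) and with the same weight for each cluster (Cxcl16). It was 1 in microglia with free RNA subtracted (Ccr7), and 1 in macrophages (Xcl1) and in NK cells (Cx3cr1) without the top cell. Ccr4 in T cells ran from 0.91 to 1.14 and Xcl1 in NK cells from 0.50 to 0.73. Depth limits Ccr4, a few high cells limit Ccl17, and the number of cells limits every value of the 14 CD169-DTR migratory DCs.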

Other observations

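In DCs, 6 of 16 counted genes of DC maturation were past 2-fold, all higher in WT, where 6.58% of all genes were past it in either direction, with a list median log2 ratio of 0.88 where all genes had -0.02. Fscn1, an actin bundler of mature DCs, had 165 CPM in WT and 59.7 in CD169-DTR (log2 ratio 1.46), Socs2, a suppressor of cytokine signals, 75.4 and 20.7 (1.87), and Cd200, an inhibitory ligand, 46.7 and 17.3 (1.44). Within migratory DCs alone Fscn1 was 1502 and 801 CPM, Socs2 588 and 213, and Il12b, a subunit of the cytokine IL-12, 344 and 674. Fscn1, Socs2, Il12b and Il4i1, another of the 6 genes, were among the markers that named these cells. Migratory DCs were 135 of 1175 WT and 14 of 244 CD169-DTR DCs. A level over all DCs therefore also depends on this mix, whose part in the count was not tested. Of 9 genes of the cDC1 programme, 0 were past 2-fold in DCs (median 0.32), against the same 6.58%.

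Of 12 genes of lymphocyte activation, 2 were past 2-fold in NK cells, where 6.72% of all genes were. Csf2, a growth factor of myeloid cells, had 37.8 CPM in WT and 10.4 in CD169-DTR, and Cd160, an NK cell receptor, 48.0 and 105. In T cells 2 of 12 were, against 7.27%, with Tnfrsf9, a costimulatory receptor, at 112 and 55.1 and Egr2, a transcription factor, at 5.40 and 13.8. Ifng, the gene of interferon gamma, had 399 and 509 in NK cells and 192 and 366 in T cells.

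In macrophages, 6 of 20 other chemokine ligands were past 2-fold higher in WT, with Cxcl10 at 2216 and 489 CPM, Ccl5 at 1089 and 267 and Cxcl9 at 61.2 and 14.9, and Cxcl1 was past 2-fold lower, where 5.45% of all genes were past it. In microglia 2 of 21 were, against 2.62%, Ccl5 at 416 and 157 and Cxcl13 at 54 and 20.6.

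Over 46 profiles of subset and library, the gene nearest to Ccl17 was Wnt11 (Pearson's r 0.92), to Ccr4 Ctla4 (0.91), to Cxcr6 Thy1 (0.97), to Cx3cr1 Csf1r (0.98), to Xcl1 Klra7 (0.94) and to Xcr1 Gcsam (0.97). For Cxcl16 it was Rufy3 (0.91), for Cxcr4 Iqgap1 (0.93), for Ccr7 Cd200 (0.80) and for Ccl22 Bcl2l14 (0.84). The profiles share libraries and parent classes, and these values are descriptions.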
